A study of Rattus norvegicus with 35 samples.

Results

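The change of gene expression between 1 h and 4 h of cyclic mechanical stretch was followed in neonatal rat ventricular myocytes (NRVMs), the beating muscle cells of the newborn rat ventricle in culture. The 5 arrays of cells stretched for 4 h were compared directly with the 5 arrays of cells stretched for 1 h, which are 10 of the 35 arrays of the series, over all 31042 probe sets of the array other than its controls. Each array reports mRNA levels as intensities, given here on the log2 scale, so that a difference of 1 is a 2-fold change.

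All groups were NRVMs of Sprague-Dawley rats aged 2 to 4 days, grown on flexible-bottomed plates. Stretch was applied by cyclic vacuum under the plates, and the series holds 7 groups of 5 arrays: unstretched cells and cells stretched for 1, 4 or 12 h, and a further set with its own unstretched cells and cells stretched for 24 or 48 h. The myocytes came from digested ventricles after pre-plating, a step that enriches for myocytes without removing every other cell. According to the study's methods, stretch began at different times in the groups of a culture and ended at the same time, so that the cells had been in culture equally long at harvest.

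Mechanical load on a cardiac myocyte is read by integrins, ion channels and G protein-coupled receptors, and passes through mitogen-activated protein kinases to transcription factors that are already present, such as the serum response factor and CREB. These switch on immediate early genes within minutes, without new protein being made. Most immediate early transcripts are short-lived and carry their own negative feedback, and the transcription factors and growth factors they encode act on later genes for growth, matrix and stress defence.

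Promoters of 5 genes described below are shown: Egr1, Egr2 and Ier2 are immediate early genes that were lower at 4 h, and Gclm and Nars1 are genes that were higher. They were picked because they hold the motif and do not stand for their groups. A promoter was available for 25 of 36 measured immediate early genes, but not for Fos, Jun, Myc, Atf3 or Nr4a3. For Nrf2 targets it was available for 33 of 35, but not for Hmox1 or Gsr. The sequences are those of RefSeq on the build GRCr8, 5′ to 3′ on the strand of the gene, and lie before the transcription start. Capitals mark the motif searched on both strands, which is the serum response element in Egr1 and Egr2, TGACGTCA (the cyclic AMP response element, CRE) in Ier2, TGACNNNGC (the core of the antioxidant response element) in Gclm and TGATGNAAN (the core bound by ATF4 with a C/EBP partner) in Nars1. Egr1 lies at chr18:26736953-26737077 on the plus strand, Egr2 at chr20:21054442-21054561 on the minus strand, Ier2 at chr19:40399253-40399372 on the plus strand, Gclm at chr2:213031943-213032031 on the plus strand and Nars1 at chr18:60275783-60275902 on the minus strand.
Egr1: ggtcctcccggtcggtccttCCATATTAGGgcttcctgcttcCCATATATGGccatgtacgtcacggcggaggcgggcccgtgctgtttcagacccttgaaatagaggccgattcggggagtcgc
Egr2: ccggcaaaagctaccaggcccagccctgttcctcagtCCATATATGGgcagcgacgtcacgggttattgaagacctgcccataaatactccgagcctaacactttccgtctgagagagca
Ier2: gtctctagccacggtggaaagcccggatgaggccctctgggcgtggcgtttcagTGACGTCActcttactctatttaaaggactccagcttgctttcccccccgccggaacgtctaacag
Gclm: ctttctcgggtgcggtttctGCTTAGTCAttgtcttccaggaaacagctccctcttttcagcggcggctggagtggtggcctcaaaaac
Nars1: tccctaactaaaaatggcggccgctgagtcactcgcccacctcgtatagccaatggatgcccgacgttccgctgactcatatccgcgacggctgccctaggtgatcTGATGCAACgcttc

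The serum response element was found within 250 bases before the start in 5 of the 25 immediate early genes with a promoter in the table, and in 1.5% of all 33469 promoters. TGACGTCA was found in 4 of those 25 genes and in 1.59% of all promoters. TGACNNNGC was found in 9 of 33 Nrf2 target genes (27.3%) and in 10.1% of all promoters, but also in 6 of 20 aminoacyl-tRNA synthetase genes (30%), 7 of 28 ATF4 targets (25%) and 5 of the 25 immediate early genes (20%). TGATGNAAN was found in 7 of 28 ATF4 targets and in 5 of 20 aminoacyl-tRNA synthetase genes, against 3.38% of all promoters. TGANTCA, the AP-1 site, was found in none of the 25 immediate early genes and in 6.34% of all promoters. A TGACNNNGC match can overlap a TGANTCA match, as both begin with TGA. These are matches of letters, and binding was not measured. A listed gene was counted if any of its promoters held the motif, whereas the shares of all promoters count each promoter separately. The shares are thus in unlike units, and a gene with several promoters has more chances of a match.

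The 5 arrays at 4 h were less alike than those at 1 h. Mean correlations of an array with the others of its group, over all probe sets, were 0.9938 to 0.9966 at 4 h and 0.9965 to 0.9977 at 1 h, and replicate 5 at 4 h had a narrower spread of intensities, with a lower quartile of 29.1 against 25.5 to 26.5 in the other 4 h arrays. Without it, 86 probe sets were higher and 104 lower past 1.5-fold, against 71 and 126 with it. Signals of the 3′ and 5′ probe sets of Gapdh, a measure of RNA integrity, differed by 0.12 to 0.33 at 1 h and 0.03 to 0.30 at 4 h on the log2 scale. The same difference was larger for the other controls. For beta-actin it was 1.31 to 1.45 at 1 h and 1.21 to 1.39 at 4 h. For hexokinase it was 1.68 to 2.42 at 1 h and 1.63 to 2.42 at 4 h.

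In the comparison of 4 h with 1 h, 2221 probe sets were higher (7.15% of those tested) and 1916 were lower (6.17%) at an adjusted p under 0.05 in limma. Most of these differences were small, as 66.1% of the called probe sets differed by less than 1.25-fold. In a fit of the 1 h and 4 h arrays alone, 1289 probe sets were higher and 1053 lower. At least 1.5-fold differences were found in 71 higher probe sets (0.229%) and 126 lower ones (0.406%), and at least 2-fold differences in 6 higher (0.0193%) and 19 lower (0.0612%). Of the 197 probe sets past 1.5-fold, 145 name a single gene and 52 name none in the annotation of the array. In 183 of them the 5 arrays at 4 h all lay on the same side of the 5 arrays at 1 h. They had been picked by test and fold on these same arrays, so this separation is not further evidence. With each gene read through its brightest probe set, 1227 of 14217 genes were higher (8.63%) and 1261 were lower (8.87%), and past 1.5-fold 36 were higher (0.253%) and 71 were lower (0.499%). In the fit of the 1 h and 4 h arrays alone, 711 genes were higher and 706 lower at an adjusted p under 0.05. The median difference over all genes was -0.0099. Counts of the gene lists below are to be read beside the shares of all genes, 8.63% higher and 8.87% lower.

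**Figure D1:**
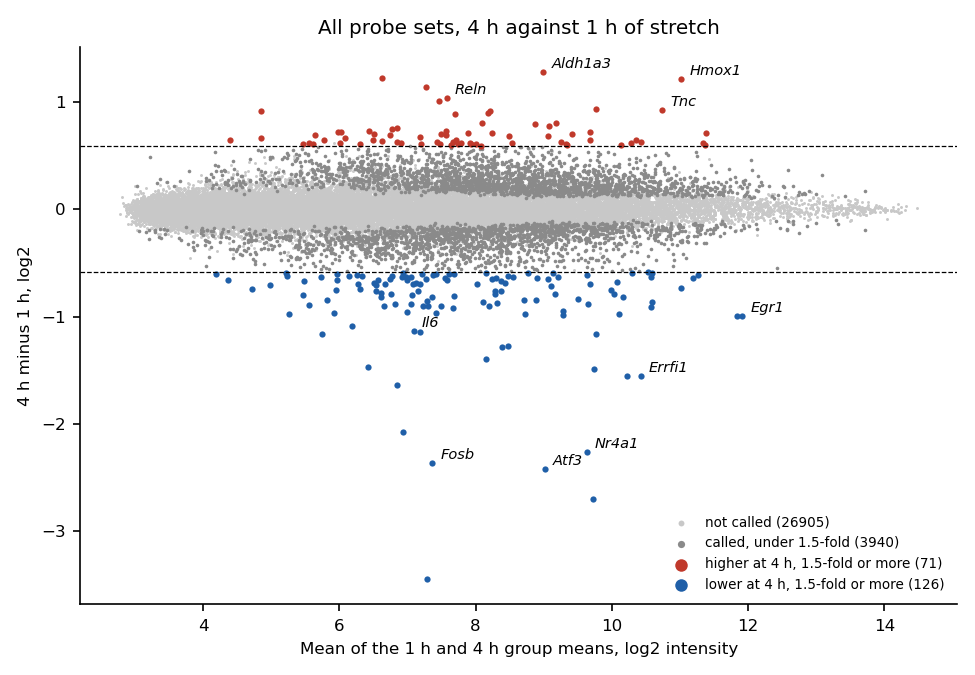
Difference between 4 h and 1 h of stretch (log2, vertical axis) against the mean level of both groups (log2 intensity, horizontal axis) for the 31042 probe sets, with dashed lines at 1.5-fold. The falls reach -3.44 and the rises 1.27, and the 126 lower probe sets outnumber the 71 higher ones past 1.5-fold.

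The largest falls were those of immediate early transcription factors. Of the 36 measured genes of this list, 28 were lower at 4 h than at 1 h and none was higher, and 14 fell by at least 1.5-fold. The median difference of the list was -0.48, against -0.0099 for all genes. The list was written with results of these arrays known, so its direction is not independent evidence. The 8 members that did not pass the test were Bhlhe40, Egr3, Egr4, Ier3, Maff, Hes1, Jund and Batf3, with differences between -0.23 and 0.10.

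Atf3, a stress-induced factor of the ATF family, fell most among these. Its log2 levels in replicates 1 to 5 were 10.21, 10.30, 10.04, 10.20 and 10.39 at 1 h, and 7.67, 7.91, 7.83, 7.82 and 7.80 at 4 h. The 4 h arrays lay well below the 1 h arrays without overlap, and the difference was 2.42 ± 0.07 (SE), a 5.36-fold lower level (adjusted p = 2.71e-15). Unstretched cells were at 7.12 ± 0.13 (SD, n = 5) and cells stretched for 12 h at 7.50 ± 0.12, so the level at 4 h was near the level at 12 h.

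Fosb, a partner of Jun proteins in the AP-1 factor, was at 8.54, 8.54, 8.48, 8.73 and 8.42 at 1 h and at 6.11, 6.36, 6.16, 6.07 and 6.18 at 4 h. All 4 h arrays were again below all 1 h arrays, and the level was 5.16-fold lower (adjusted p = 1.08e-12). Fos, another partner of the Jun proteins, moved less. It was at 9.39, 9.40, 9.39, 9.42 and 9.36 at 1 h and at 8.94, 8.73, 8.87, 8.60 and 8.56 at 4 h, 1.57-fold lower (adjusted p = 1.63e-06). Its arrays did not overlap either, and its level of 8.58 ± 0.09 at 12 h was between those of unstretched cells (8.17 ± 0.11) and 4 h (8.74 ± 0.16). A dimmer probe set of Fos was at 5.65 at 1 h and 5.67 at 4 h and did not pass the test. Other AP-1 members were lower by smaller amounts, with differences of -0.54 for Junb, -0.45 for Fosl1, -0.42 for Fosl2 and -0.28 for Jun, and Jund, at -0.02, did not pass the test.

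The NR4A orphan nuclear receptors, which act without a known ligand and are induced by many stimuli, fell together. Nr4a1 was at 10.71, 10.80, 10.69, 10.91 and 10.69 at 1 h and at 8.44, 8.61, 8.50, 8.50 and 8.43 at 4 h, 4.80-fold lower (adjusted p = 3.77e-17). Nr4a3 was at 7.65, 8.12, 7.88, 8.43 and 7.79 at 1 h and at 5.81, 6.12, 5.91, 5.83 and 5.82 at 4 h, 4.22-fold lower (adjusted p = 2.75e-11). Neither gene had a 4 h array as high as any 1 h array. A second probe set of Nr4a3 had the largest fall on the array, from a mean of 9.0 to 5.56, and the dimmest, at 4.58 and 4.48, did not pass the test. Nr4a2 fell by 0.88 ± 0.08, from 7.25 ± 0.19 to 6.37 ± 0.08 (adjusted p = 2.17e-07).

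Of the EGR zinc-finger factors, which bind GC-rich promoters and are classical targets of the serum response factor, Egr2 fell more than Egr1. Egr2 lay between 10.93 and 11.07 on the 5 arrays at 1 h and was at 9.39, 9.41, 9.59, 9.43 and 9.40 at 4 h, 2.94-fold lower (adjusted p = 1.91e-15). Egr1 was at 12.47, 12.45, 12.48, 12.43 and 12.22 at 1 h and at 11.38, 11.37, 11.47, 11.34 and 11.50 at 4 h, and it fell by 1.00 ± 0.05 (adjusted p = 6.31e-11). In both genes the arrays of the groups were far apart. The promoter of Egr1 printed above holds 2 serum response elements, 105 and 83 bases before the start, and that of Egr2 holds 1, also 83 bases before the start. Nab2, a corepressor that EGR factors induce and that limits them, fell by 0.70 ± 0.04 (adjusted p = 9.12e-11). Egr3 was low throughout, at 5.71 ± 0.10 and 5.56 ± 0.28, and did not pass the test.

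Ier2, a small nuclear protein whose promoter above holds a CRE 66 bases before the start, was at 10.60, 10.63, 10.54, 10.58 and 10.60 at 1 h and at 9.92, 9.90, 10.02, 10.08 and 10.06 at 4 h. Its fall of 0.59 ± 0.05 (adjusted p = 4.93e-08) was thus small but larger than the spread within either group. The Krüppel-like factors Klf5, Klf4, Klf10 and Klf6 had differences of -0.60, -0.53, -0.51 and -0.43. The serum response factor gene itself, Srf, was lower by 0.37 ± 0.05 (adjusted p = 3.43e-05), and Myc, a driver of cell growth, by 0.32 ± 0.06 (adjusted p = 0.000843). Btg2, an antiproliferative early gene named through the probe set list of the study and chosen here after its values were seen, was lower by 1.16 ± 0.04 (adjusted p = 2.09e-14), with its level at 4 h (9.19 ± 0.08) close to that of unstretched cells (9.09 ± 0.01).

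**Figure D2:**
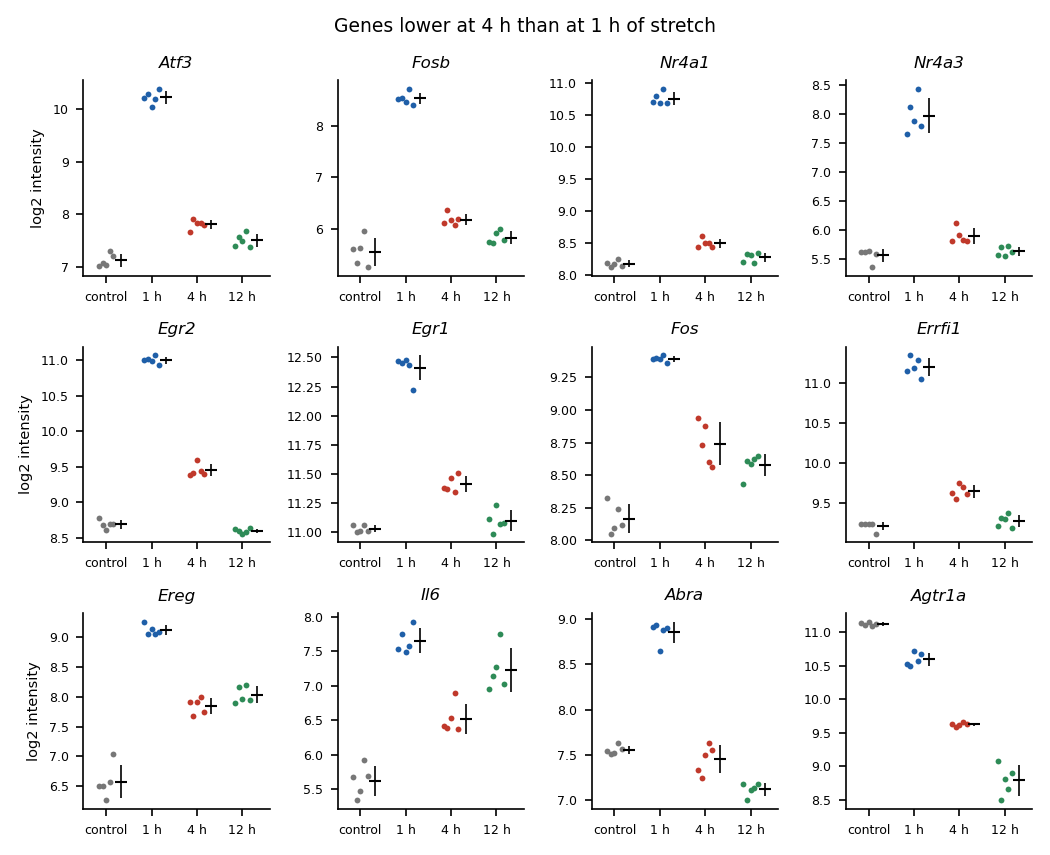
Log2 intensity of 12 genes that were lower at 4 h than at 1 h, with 1 point per array of unstretched (control), 1 h, 4 h and 12 h cells, and a bar for the mean and SD (n = 5) beside each group. The 5 arrays at 4 h lie below the 5 arrays at 1 h in every panel, and Agtr1a differs from the rest in that its unstretched level is the highest.

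Part of the negative regulators of the ERK kinase cascade fell in the same interval. Of 21 measured ERK feedback genes, 11 were lower, 1 was higher and 9 did not pass, with a median of -0.20. The 11 became 4 in a fit of the 1 h and 4 h arrays alone with a replicate block. Errfi1, an inhibitor of the EGF receptor, was at 11.14, 11.34, 11.18, 11.28 and 11.04 at 1 h and at 9.63, 9.55, 9.75, 9.70 and 9.61 at 4 h, 2.93-fold lower (adjusted p = 5.63e-14), and no 4 h array reached the 1 h arrays. The ERK phosphatase genes Dusp5 and Dusp6 fell by 0.46 ± 0.07 and 0.37 ± 0.08, and Spry2, an inhibitor of receptor tyrosine kinase signaling, by 0.34 ± 0.05. Dusp7, another ERK phosphatase gene, went the other way, from 8.73 ± 0.06 to 9.23 ± 0.08 (adjusted p = 2.16e-07).

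The EGF receptor family and its ligands, which act between neighboring cells, moved both ways. Of 11 measured ligand and receptor genes, 4 were lower, 2 were higher and 5 did not pass, with a median of -0.10. Ereg (epiregulin) was at 9.25, 9.05, 9.14, 9.05 and 9.09 at 1 h and at 7.92, 7.67, 7.90, 7.99 and 7.74 at 4 h, 2.41-fold lower (adjusted p = 4.3e-08), and stayed at 8.03 ± 0.14 at 12 h against 6.58 ± 0.28 in unstretched cells. Areg (amphiregulin) fell by 0.48 ± 0.09, and Hbegf, the heparin-binding ligand, by 0.48 ± 0.09. Tgfa, a ligand of the same receptor, rose by 0.34 ± 0.08 to 7.34 ± 0.17 (adjusted p = 0.00861) and was at 8.04 at 12 h. Nrg1, the ligand of the ERBB receptors by which endothelial cells signal to myocytes, fell by 0.56 ± 0.08 through its brightest probe set, while 6 of its 8 probe sets did not pass and the mean of all was -0.14. The receptor gene Erbb2 was higher by 0.25 ± 0.06, a call lost in the fit of the 1 h and 4 h arrays alone.

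Inflammatory mediators divided into a group that fell and a few that rose. Of 36 measured genes, 15 were lower and 3 higher, while 18 did not pass, with a median of -0.11. Il6, the cytokine that acts through gp130, was at 7.53, 7.75, 7.49, 7.58 and 7.93 at 1 h and at 6.42, 6.40, 6.53, 6.89 and 6.37 at 4 h, 2.20-fold lower (adjusted p = 9.72e-06). The groups did not overlap, and the level was 7.23 ± 0.32 at 12 h. Ptgs2, the inducible cyclooxygenase, fell by 0.91 ± 0.08 (adjusted p = 2.74e-07) and Ptges, the prostaglandin E synthase that acts after it, by 0.70 ± 0.08 (adjusted p = 3.79e-06). Tnfaip3, which switches NF-kB off, fell by 0.75 ± 0.06, and Icam1, an adhesion molecule for leukocytes, by 0.59 ± 0.05. The chemokine Ccl2 (-0.11 ± 0.05) and the NF-kB inhibitor Nfkbia (0.02 ± 0.05) did not pass the test.

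Il1rl1, which encodes the receptor of interleukin-33 and its soluble form ST2, a marker of cardiac strain, went against this group. It was at 11.11, 11.11, 10.84, 10.98 and 11.10 at 1 h and at 11.65, 11.75, 11.76, 11.75 and 11.77 at 4 h, and every 4 h array was above every 1 h array. The level was 1.63-fold higher (adjusted p = 1.32e-08), and 12 h arrays were at 11.21 ± 0.07. Csf1, the growth factor of macrophages, was higher by 0.36 ± 0.04 (adjusted p = 1.42e-05).

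Most genes for making ribosomes rose. Of 56 measured ribosome biogenesis genes, 49 were higher at 4 h and none was lower, with a median of 0.31 and differences from 0.03 to 0.63. All 56 differences were above 0, although 7 did not pass the test. Heatr1, a factor for transcription and processing of ribosomal RNA, rose from 7.64 ± 0.11 to 8.24 ± 0.08 (adjusted p = 5.99e-06), and Rrp12, which serves export of the ribosomal subunits, from 8.16 ± 0.08 to 8.73 ± 0.05 (adjusted p = 3.73e-07). Polr1b, a subunit of RNA polymerase I, rose from 7.68 ± 0.07 to 8.23 ± 0.06 (adjusted p = 6.54e-07). In these 3 genes the arrays of 1 h and 4 h did not overlap. Emg1, an rRNA methyltransferase, had the largest difference of the list, 0.63 ± 0.11, but its 4 h arrays (7.76 ± 0.33) overlapped those at 1 h. The mRNA level of Myc, a known activator of such genes, was lower at 4 h than at 1 h, as given above. A link between Myc and these genes was not tested.

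**Figure D3:**
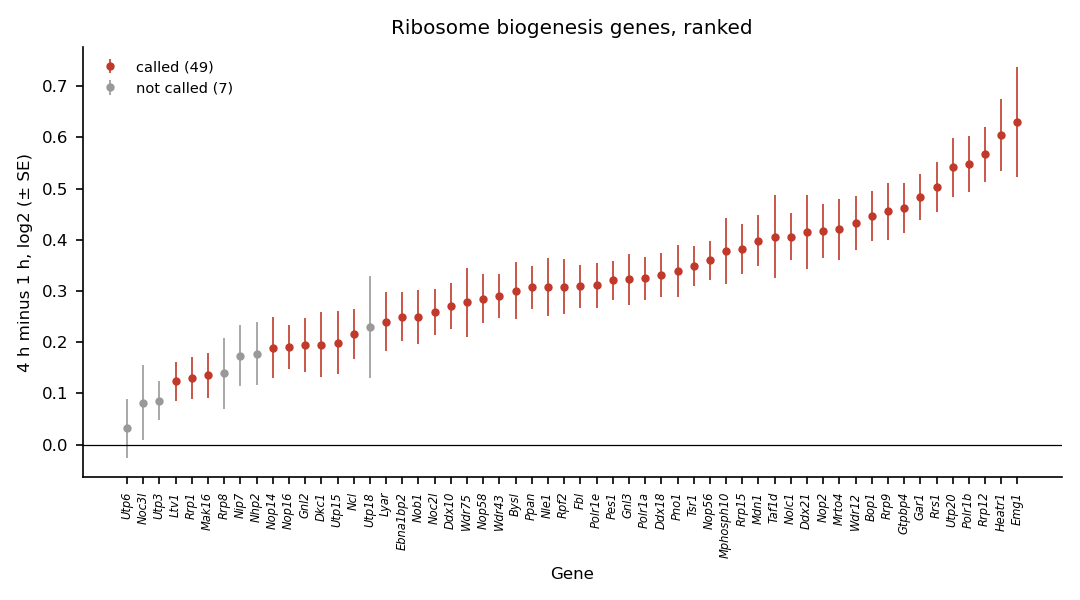
Difference between 4 h and 1 h of stretch (log2, points, with bars of 1 SE) for the 56 measured ribosome biogenesis genes, ranked. All points lie above 0, from 0.03 for Utp6 to 0.63 for Emg1, and the 49 in red passed an adjusted p of 0.05.

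Aminoacyl-tRNA synthetases of the cytosol, which charge tRNAs with amino acids, were higher in 16 of 21 measured genes and lower in none, with a median of 0.21. Cars1, the cysteinyl enzyme, rose from 9.61 ± 0.09 to 10.02 ± 0.07 (adjusted p = 3.51e-06) and Nars1, the asparaginyl enzyme, from 11.35 ± 0.06 to 11.70 ± 0.05 (adjusted p = 1.52e-05), both without overlap of the arrays. The promoter of Nars1 above holds the ATF4 core 14 bases before the start. No member reached 1.5-fold, and the largest difference was 0.40.

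Targets of ATF4, the factor of the amino acid response, were higher in 13 of 31 measured genes and lower in 2, with a median of 0.11. Ddit4, an inhibitor of the growth kinase mTORC1, was at 8.71, 8.79, 8.89, 8.64 and 8.86 at 1 h and at 9.57, 9.76, 9.59, 9.47 and 9.49 at 4 h, 1.74-fold higher (adjusted p = 1.14e-08). All 4 h arrays were above the 1 h arrays, and unstretched cells, at 9.40 ± 0.05, were closer to the 4 h level. Slc7a5, a transporter of large neutral amino acids, rose from 8.15 ± 0.07 to 8.83 ± 0.35 (adjusted p = 0.000256), the cationic amino acid transporter Slc7a1 by 0.42 ± 0.06 and the branched-chain transaminase Bcat1 by 0.43 ± 0.04. Ppp1r15a, which reverses the translation block of the stress response, fell by 0.32 ± 0.05, and Cebpb, a partner of ATF4, by 0.23 ± 0.07, a call lost without replicate 5 at 1 h or without replicate 1, 3 or 5 at 4 h. Polyamine synthesis moved in the same direction as the transporters, with Odc1, its rate-limiting enzyme, higher by 0.35 ± 0.05 and Srm, the spermidine synthase, by 0.48 ± 0.05. Of 15 polyamine and one-carbon genes, 6 were higher and 1, Sat1, which degrades polyamines, was lower.

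Chaperone genes had small differences. In the endoplasmic reticulum 5 of 23 were higher and none was lower, and this count was 2 in a fit of the 1 h and 4 h arrays alone and without replicate 3 or 4 at 4 h, 3 without replicate 2 at 1 h or after median centring, and 9 with the mean of all probe sets of a gene. In the cytosol 6 of 21 were higher and 2 lower, the latter near the 8.87% of all genes called lower. The 6 became 1 in the fit of the 1 h and 4 h arrays alone and 3 without replicate 3 or 4 of either group.

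Genes of the defence against oxidants and electrophiles, most of them targets of the factor Nrf2, included some of the largest rises. Of 35 measured Nrf2 targets, 11 were higher, 4 were lower and 20 did not pass the test, with a median of 0.08, and the count of lower genes was 2 in a fit of the 1 h and 4 h arrays alone. Hmox1, heme oxygenase, was at 10.41, 10.31, 10.50, 10.29 and 10.55 at 1 h and at 11.68, 11.82, 11.56, 11.48 and 11.57 at 4 h, 2.31-fold higher (adjusted p = 3.4e-09). Slc7a11, the cystine importer that feeds glutathione synthesis, was at 6.98, 6.96, 6.91, 6.83 and 7.11 at 1 h and at 7.95, 8.10, 7.98, 7.81 and 7.99 at 4 h, 2.01-fold higher (adjusted p = 4.41e-06). Neither gene had overlapping arrays, and at 12 h Hmox1 was at 12.44 ± 0.16 and Slc7a11 at 9.24 ± 0.32.

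Other members that were higher serve thiol reduction: Txnrd1, thioredoxin reductase, rose from 10.97 ± 0.07 to 11.50 ± 0.13 (adjusted p = 2.55e-05) and Gsr, glutathione reductase, from 6.15 ± 0.17 to 6.69 ± 0.25 (adjusted p = 0.00228). Gclm, the modifier subunit of the enzyme that starts glutathione synthesis, was at 8.69, 8.57, 8.45, 8.58 and 8.80 at 1 h and at 9.06, 9.12, 8.97, 8.95 and 8.75 at 4 h. It was higher by 0.35 ± 0.07 (adjusted p = 0.00168), although replicate 5 at 4 h lay within the 1 h range, and its promoter above holds the antioxidant response core 172 bases before the start. Nqo1 (0.10) and Gclc (-0.10), also classical targets, did not pass the test. Fmo1 and Aox1, enzymes that oxidise drugs and aldehydes, were lower by 0.67 ± 0.10 and 0.47 ± 0.08.

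**Figure D4:**
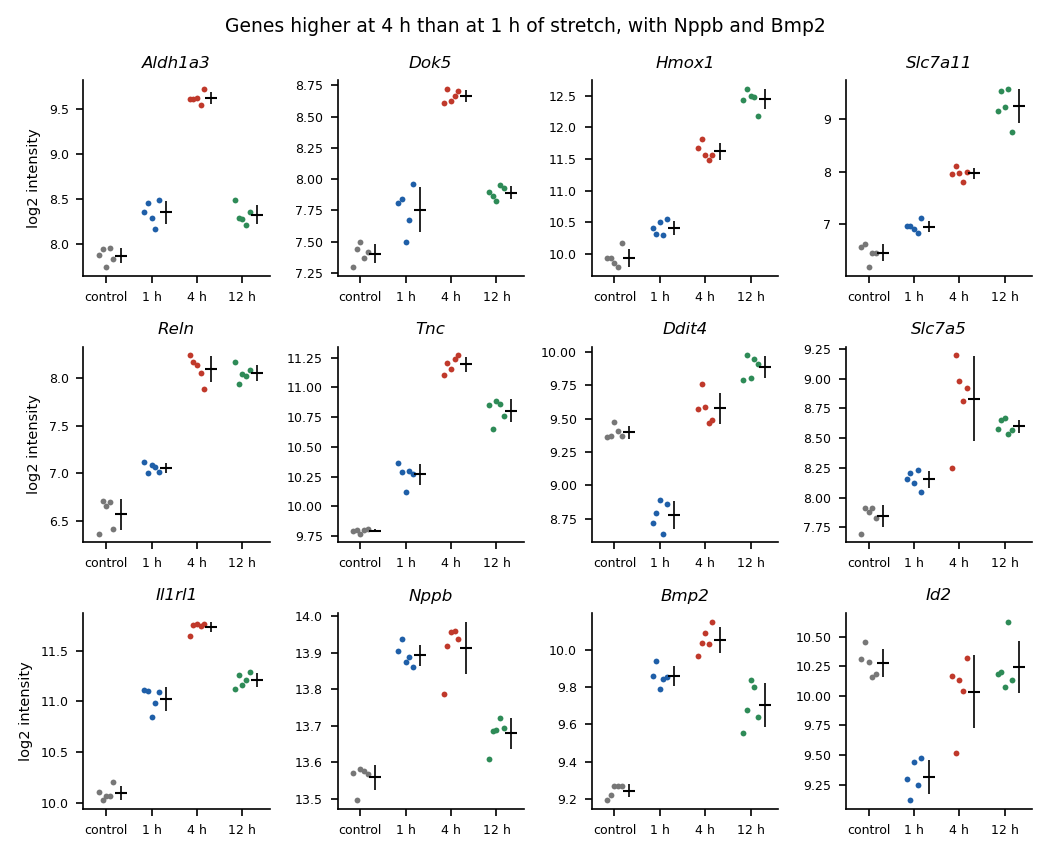
Log2 intensity of 12 genes, drawn as in the plot of falling genes, with 1 point per array and a bar for mean and SD (n = 5). The 5 arrays at 4 h lie above the 5 arrays at 1 h in every panel except that of Nppb, while Hmox1, Slc7a11 and Ddit4 are higher still at 12 h and Aldh1a3 and Dok5 are highest at 4 h.

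The largest rise of a gene was that of Aldh1a3, an enzyme that makes retinoic acid from retinal. It was at 8.36, 8.46, 8.29, 8.17 and 8.50 at 1 h and at 9.61, 9.62, 9.63, 9.55 and 9.73 at 4 h, 2.42-fold higher (adjusted p = 1.82e-11). No arrays overlapped, and at 12 h the level was 8.33 ± 0.11, close to that at 1 h. Dok5, an adaptor of receptor tyrosine kinases, had the same shape, with 7.75 ± 0.18 at 1 h, 8.66 ± 0.05 at 4 h and 7.89 ± 0.05 at 12 h (adjusted p = 6.62e-09 for 4 h against 1 h). Reln, a secreted glycoprotein, rose 2.05-fold, from 7.06 ± 0.05 to 8.09 ± 0.14 (adjusted p = 4.7e-09), and kept 8.05 ± 0.08 at 12 h. Ass1, which makes argininosuccinate in arginine synthesis, rose by 0.78 ± 0.06 and Pkp1, a desmosomal plaque protein, by 0.80 ± 0.06. Kcns3, a modifier subunit of potassium channels, rose by 0.75 ± 0.10, and C3h15orf48 by 0.72 ± 0.07. Ahr, the aryl hydrocarbon receptor, rose by 0.70 ± 0.13 through its brighter probe set, and the other, at -0.12, did not pass the test, so that the mean of both was 0.29.

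Growth factors of the TGF-beta and BMP family were higher in 10 of 31 measured genes and lower in 6, with a median of 0.07. Tgfb1 and Tgfb2, the ligands that drive matrix production, were higher by 0.34 ± 0.07 (adjusted p = 0.00264) and 0.41 ± 0.07 (adjusted p = 0.000309), and Bmp2 by 0.20 ± 0.05 (adjusted p = 0.0136). Id2, an inhibitor of basic helix-loop-helix factors and a BMP target, was at 9.30, 9.12, 9.44, 9.25 and 9.48 at 1 h and at 10.17, 9.52, 10.13, 10.04 and 10.32 at 4 h (adjusted p = 0.000404). Its replicate 2 at 4 h was lower than the other 4 h arrays, and unstretched cells were at 10.28 ± 0.12, above the 1 h level. Bambi, a decoy receptor of the family, rose by 0.64 ± 0.05 from 9.36 ± 0.08, with 9.87 in unstretched cells. The BMP antagonist Grem1 and the ligand Bmp3 fell by 0.69 ± 0.09 and 0.58 ± 0.10 and were lower again at 12 h.

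Of 39 matrix genes, 7 were higher and 8 lower, with a median of 0.01, against 8.63% and 8.87% of all genes. Tnc, tenascin C, a matrix protein of strained and healing tissue, was at 10.36, 10.29, 10.12, 10.30 and 10.28 at 1 h and at 11.10, 11.20, 11.15, 11.23 and 11.27 at 4 h, 1.90-fold higher (adjusted p = 9.12e-11) and without overlap. The proteoglycan-cleaving proteases Adamts5 and Adamts1 fell by 0.87 ± 0.08 and 0.54 ± 0.04, while Adamts8 of the same family rose by 0.53 ± 0.06. Has2, the hyaluronan synthase, was at 8.94, 9.14, 8.98, 9.05 and 8.99 at 1 h and at 7.66, 7.65, 7.73, 7.94 and 7.74 at 4 h, 2.43-fold lower (adjusted p = 1.76e-11), and Cd44, the hyaluronan receptor, rose by 0.44 ± 0.06. Cemip, which breaks hyaluronan down, fell by 0.61 ± 0.10.

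In the plasminogen system, 4 of 10 measured genes were lower (2 in the fit of the 1 h and 4 h arrays alone) and 2 were higher. Thbd, thrombomodulin, was at 9.05, 9.26, 9.21, 9.37 and 9.18 at 1 h and at 8.32, 8.25, 8.24, 8.55 and 7.85 at 4 h, 1.97-fold lower (adjusted p = 1.41e-06), and its 4 h levels lay below those of unstretched cells, at 8.74 ± 0.09. Plaur, the urokinase receptor, fell by 0.48 ± 0.09. Serpinb2, an inhibitor of urokinase, was higher by 0.41 ± 0.13 (adjusted p = 0.0354), a call lost when any 1 of replicates 1 to 4 at 1 h or 2 to 5 at 4 h was left out.

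Of 36 genes of the actin cytoskeleton linked to serum response factor, 11 were higher and 4 lower, with a median of 0.08. Abra (STARS), an actin-binding activator of that factor in striated muscle, was at 8.91, 8.93, 8.65, 8.88 and 8.90 at 1 h and at 7.34, 7.25, 7.50, 7.63 and 7.56 at 4 h, 2.64-fold lower (adjusted p = 1.01e-11). The 4 h arrays lay around the unstretched level of 7.56 ± 0.05. Lmod2, leiomodin, which elongates actin filaments of the sarcomere, fell by 0.54 ± 0.04 (adjusted p = 4.76e-09). Pfn1, profilin, rose by 0.60 ± 0.09 and Mical2, which oxidises actin, by 0.49 ± 0.05.

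Among regulators of small GTPases, 6 of 22 were higher and 6 lower, the latter 3 in the fit of the 1 h and 4 h arrays alone. Arhgef3, a guanine nucleotide exchange factor, fell by 0.84 ± 0.06, and Rnd3, an atypical small GTPase, rose by 0.62 ± 0.09. Targets of YAP and TEAD were higher in 4 of 22 and lower in 5, and the count of lower genes was 3 in the fit of the 1 h and 4 h arrays alone and without replicates 2 or 4 at 1 h or replicates 3 or 5 at 4 h. Tead4, a TEAD factor, was higher by 0.56 ± 0.07 through its brightest probe set, and its other probe sets, at -0.07 each, did not pass the test. Nuak2, a kinase of the AMPK family, was lower by 0.61 ± 0.07.

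Receptors and peptides of the vascular and cardiac load response included 6 higher and 4 lower genes of 32, with a median of -0.02. Agtr1a, the angiotensin II type 1 receptor, was at 10.52, 10.50, 10.71, 10.57 and 10.68 at 1 h and at 9.63, 9.59, 9.61, 9.66 and 9.62 at 4 h, 1.96-fold lower (adjusted p = 2.22e-08). Its levels descended over the course, from 11.12 ± 0.03 in unstretched cells to 8.79 ± 0.22 at 12 h. Bdkrb1, the inducible bradykinin receptor, was low on the array and fell from 6.01 ± 0.21 to 5.11 ± 0.12 (adjusted p = 3.49e-05). S1pr3, a sphingosine-1-phosphate receptor, rose from 10.12 ± 0.05 to 10.75 ± 0.07 (adjusted p = 1.77e-09). Adm, the vasodilator adrenomedullin, rose from 10.28 ± 0.09 to 10.77 ± 0.11 (adjusted p = 3.49e-05) and reached 11.22 ± 0.13 at 12 h. For Edn1, endothelin-1, the difference was 0.10 ± 0.07 (adjusted p = 0.425).

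In a list of hypertrophy markers, 4 of 18 measured genes were higher and 3 lower, with a median difference of 0.00. The list mixes classical markers with genes that the paper names as stretch-responsive from its own analysis, such as Lmcd1 and Phactr1. It is thus not independent of these data. Nppa and Nppb, the natriuretic peptides of the stretched heart, did not pass the test between 1 h and 4 h. Nppa was at 14.30 ± 0.02 and 14.33 ± 0.03 and Nppb at 13.89 ± 0.03 and 13.91 ± 0.07, near the top of the intensity range. Lmcd1, an activator of calcineurin signaling, rose by 0.39 ± 0.06, and Spp1, osteopontin, by 0.34 ± 0.08 (adjusted p = 0.00476). Phactr1, a regulator of protein phosphatase and actin, fell by 0.55 ± 0.11. Atp2a2, the calcium pump SERCA2, was at 13.70 ± 0.03 and 13.66 ± 0.05 (adjusted p = 0.568).

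Calcium handling and ion channel genes were lower in 8 of 41 and higher in 3, with a median of -0.05. The 8 became 4 in the fit of the 1 h and 4 h arrays alone, and 5 without replicate 3, 4 or 5 at 4 h. Over all genes, 8.63% were called higher and 8.87% lower. The 3 higher genes, and the 4 lower ones of that fit, are near these shares. With the mean of all probe sets of a gene, 11 were lower and 6 higher. The potassium channel genes Kcna4 and Kcnj8 fell by 0.42 ± 0.08 and 0.42 ± 0.09, and P2rx5, an ATP-gated channel, rose by 0.49 ± 0.07.

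In energy metabolism, 5 of 34 genes of fatty acid oxidation and its regulators were lower and none was higher. Ppargc1a, the coactivator of mitochondrial biogenesis, fell from 9.14 ± 0.05 to 8.58 ± 0.20 (adjusted p = 4.19e-05), and the lipid droplet protein gene Plin5 by 0.43 ± 0.09. Of 28 glycolysis genes, 2 were higher and 2 lower, the latter the glucose transporters Slc2a3 (-0.49 ± 0.06) and Slc2a1 (-0.17 ± 0.04). The glycolysis shares are near the 8.63% and 8.87% of all genes called higher and lower. A dimmer probe set of Slc2a3 had a difference of 0.29 and did not pass the test, and the mean of both, -0.10, did not pass either. Xdh, xanthine dehydrogenase, fell from 8.27 ± 0.09 to 7.72 ± 0.14 (adjusted p = 2.05e-05). Cholesterol genes were lower in 6 of 14 and higher in none, with a median of -0.11, among them the cholesterol exporter Abca1 (-0.67 ± 0.08) and Insig1 (-0.31 ± 0.04), which holds sterol synthesis back.

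In insulin signaling, FoxO and atrophy genes, 5 of 24 were higher and 2 lower, the latter near the 8.87% of all genes called lower. Irs2, an insulin receptor substrate, fell by 0.63 ± 0.06 and Igf1 by 0.31 ± 0.06, while Pik3ip1, an inhibitor of PI3-kinase, rose by 0.48 ± 0.08 and Txnip, which limits glucose uptake, by 0.36 ± 0.05. Clock genes were higher in 5 of 18 (3 in the fit of the 1 h and 4 h arrays alone) and lower in 5. Noct, an NADP(H) phosphatase with a daily rhythm, was at 10.55, 10.54, 10.40, 10.49 and 10.43 at 1 h and at 8.84, 9.02, 9.04, 8.97 and 9.11 at 4 h, 2.80-fold lower (adjusted p = 1.65e-13). Nfil3, a repressor of D-box genes, fell by 0.64 ± 0.05. Bmal1, the core activator of the clock, rose by 0.57 ± 0.06 and Nr1d1, its repressor, by 0.46 ± 0.05.

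Of 26 cell cycle regulators, 3 were lower and none higher, against 8.87% of all genes called lower, with Gadd45g (-0.47 ± 0.07) and Cdkn1c (-0.45 ± 0.09), both inhibitors of proliferation, among them. Of 21 BCL2 family and death regulators, 4 were higher and 2 lower, the latter the death receptor gene Fas (-0.36 ± 0.05) and the survival gene Mcl1 (-0.25 ± 0.05). The count of lower BCL2 family genes is near the share of all genes called lower. In Notch, Wnt and vascular growth genes, 8 of 32 were lower and 2 higher. Ccn4, a Wnt-induced matricellular protein, rose from 7.21 ± 0.25 to 7.93 ± 0.26 (adjusted p = 0.000211), whereas Ccn5 of the same family fell by 0.56 ± 0.09. Interferon-stimulated genes were lower in 6 of 29, with Tap1, the peptide transporter of antigen presentation, at -0.40 ± 0.05, and higher in 1, the factor Irf1, at 0.45 ± 0.05.

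**Figure D5:**
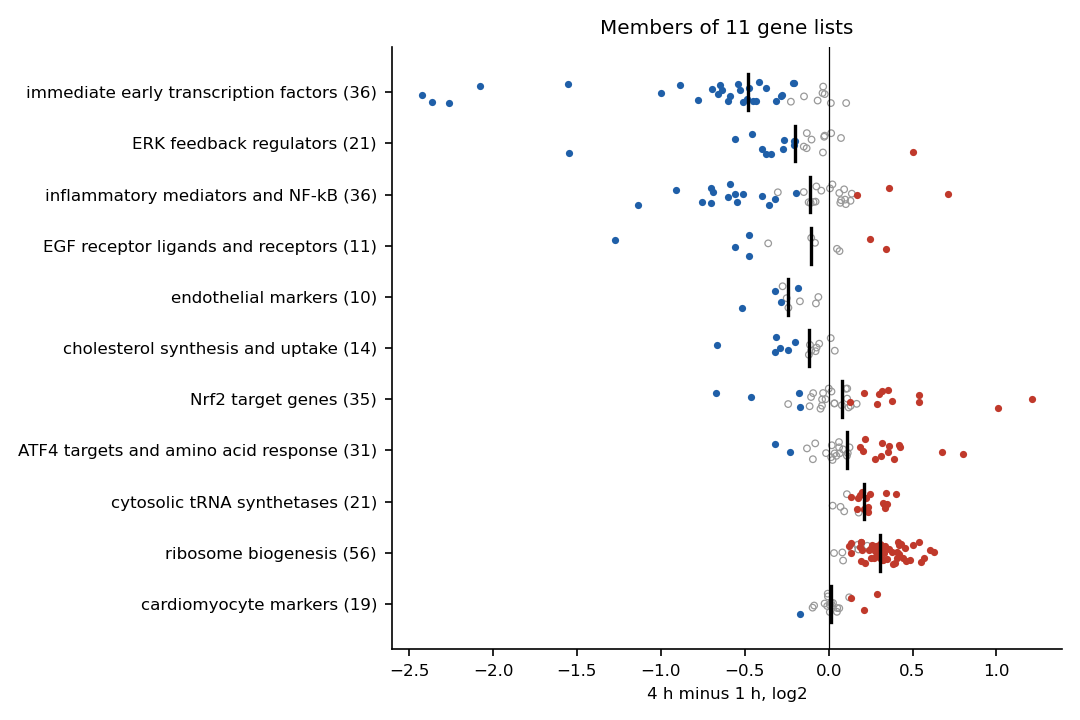
Difference between 4 h and 1 h of stretch (log2, horizontal axis) for each measured member of 11 gene lists, with the number of members in brackets and a black line at the list's median. Blue and red points passed an adjusted p of 0.05 and open points did not, and the medians run from -0.48 for immediate early transcription factors to 0.31 for ribosome biogenesis.

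The labelled cell type was checked on marker genes. The 19 measured cardiomyocyte markers had mean log2 levels between 10.3 and 14.3 at 1 h, with Tnnt2, cardiac troponin T, at 14.13 ± 0.02 and Myh6, the alpha myosin heavy chain, at 14.08 ± 0.03. Of these, 3 were higher (1 in the fit of the 1 h and 4 h arrays alone) and 1 was lower at 4 h, with a median of 0.01, and their summed intensity was 179441 to 186637 at 1 h and 181502 to 188932 at 4 h. Fibroblast markers were bright too, with Col1a1, a collagen of fibroblasts, at 13.35 ± 0.08, and 2 of 12 were lower, led by the receptor gene Pdgfra (-0.64 ± 0.07, adjusted p = 4.84e-06). Their summed intensity was 72642 to 75183 at 1 h and 68164 to 72793 at 4 h. Of all genes, 8.63% were called higher and 8.87% lower.

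Of the 8 lists of cell type markers, that of endothelial cells had the median farthest from 0. Of 10 measured, 4 were lower (Cldn5, Flt1, Esam and Tek) and none higher, all 10 differences were below 0, and the median was -0.25. Cldn5, the tight junction protein of endothelium, fell from 7.55 ± 0.14 to 7.03 ± 0.21 (adjusted p = 0.00176). The summed intensity of the list was 2515 to 2942 at 1 h and 2025 to 2518 at 4 h, and leaving out replicate 3 at 1 h left 2 of the 4 calls, without Flt1 and Esam. The call of Flt1 was also lost without replicate 1, 2 or 4 at 1 h and without replicate 3 or 5 at 4 h. Fewer cells of a type and less RNA per cell cannot be told apart in such bulk RNA, here or in any other list, and the part of endothelial cells in the fall of genes they also express, such as Thbd, Icam1 and Angpt2 (-0.45 ± 0.10), was not tested. Smooth muscle markers were higher in 1 and lower in 1 of 11, macrophage markers lower in 1 of 14, mesothelial markers higher in 1 of 8 (Krt18, 0.46 ± 0.07), Schwann cell markers lower in 1 of 5, and no erythroid marker of 5 passed the test. Over all genes, 8.63% were called higher and 8.87% lower. The smooth muscle, macrophage and mesothelial counts are near these shares and say little about those cells.

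Some large changes belonged to probe sets without a gene name. The probe set 1392791_at fell from 11.07 ± 0.08 to 8.37 ± 0.19, 6.50-fold (adjusted p = 1.91e-15), and 1378867_at from 7.66 ± 0.21 to 6.03 ± 0.25 (adjusted p = 3.83e-09). The probe set 1383589_at rose from 7.73 ± 0.10 to 8.63 ± 0.07 (adjusted p = 3.18e-10) and was at 8.82 ± 0.05 in unstretched cells. The probe set 1391506_at rose from 6.46 ± 0.14 to 7.22 ± 0.14 (adjusted p = 6.52e-06). Among named genes outside the lists, Otud1, a deubiquitinase, fell by 1.00 ± 0.06 and Plcxd3, a phospholipase C-like protein, by 0.98 ± 0.13, the latter from a low level of 5.75 ± 0.27.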

How the data were processed

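RNA of 35 NRVM cultures was measured on Affymetrix rat expression arrays, with 5 biological replicates per group as the study describes them. The authors deposited one table of intensity values per probe set, normalized by RMA and given on a linear scale. These were turned into log2 values here. Of the cells, 515 held whole numbers, of which 471 were spreadsheet dates and were read back as the values they came from, and 44 were kept. The 57 control probe sets were left out.

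Of 31042 probe sets, 20826 name 1 gene in the platform annotation, 436 several and 9780 none, and a gene was read through its brightest probe set among those naming it alone (14217 genes). A linear model with a mean for each of the unstretched, 1 h, 4 h and 12 h groups (20 arrays) was fitted with limma 3.58.1 in R 4.3.3, so that all 4 groups share the estimate of the spread. The contrast of 4 h with 1 h was tested with a moderated two-sided test and Benjamini-Hochberg adjustment over all probe sets, and a call needs an adjusted p under 0.05. Errors of differences are standard errors from this fit and errors of levels are SDs of 5 arrays. The fit was run on simulated data with independent normal spread, equal in all groups. Of 50 probe sets changed 1.25-fold 29 passed the adjusted p, and of 50 changed 1.5-fold 47 did. Of 30842 unchanged ones 11 passed. The simulation held no shared cultures and no wider spread at 4 h, so it cannot speak to these.

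Genes named are the 15 largest rises and 15 largest falls past 1.5-fold with separated arrays, up to 4 called members per list by size and up to 2 against its direction, and the genes the study measured by RT-PCR. Others were named after their values were seen. The comparison, the members and the lists were chosen with earlier results of these data known. Lists are described by counts and medians, without a set test. Each count is to be read beside the 8.63% of all genes called higher and the 8.87% called lower. Alternatives were another scaling (median centring or quantile), array weights, a variance trend, no moderation, a fit of the 1 h and 4 h arrays alone, a filter on the dimmest 25% of probe sets, leaving out probe sets with date cells, the mean of a gene's probe sets, adjustment over genes alone, a replicate block and leaving out each array. Promoters came from RefSeq (GRCr8). Intensities of different probe sets are not compared as amounts of RNA, and the number of arrays limits the precision.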

Additional observations from a re-analysis of the deposited data

Results flagged for a closer look

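A single array stood far from the other 4 of its group in 24 of the 354 groups of 5 values examined by Dixon's test, and chance alone gives about 1 in 20. Replicate 1 at 4 h held 6 of these values and was the lowest in each. They were Pfn1 at 11.21 (the others 11.71 to 11.82), Ppp1r15a at 8.94 (9.14 to 9.22), Nppb at 13.79 (13.92 to 13.96), Odc1 at 10.70 (10.82 to 10.85), Il1rl1 at 11.65 (11.75 to 11.77) and Lmod2 at 12.08 (12.16 to 12.18), all as log2 levels. Replicate 5 at 4 h was low for Arhgef3, at 8.89, and high for Parp9, at 8.23, and its lower quartile of intensity was 29.1. Among the other 4 h arrays, replicate 2 was high for Btg2 (9.32), replicate 3 for Egr2 (9.59) and replicate 4 for Fas (8.63).

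At 1 h, replicate 3 was low for Abra (8.65), Bcat1 (10.35) and Odc1 (10.35) and high for Rxrg (6.53). Replicate 5 was low for Egr1 (12.22) and Btg2 (10.27) and high for Eef1e1 (10.50) and Omd (7.05, against 6.43 to 6.55 in the others). Replicate 1 was high for Ptgs2 (11.15) and Flt1 (6.87) and low for Bmp3 (6.17), and replicate 2 was low for Tgfa (6.88).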

How the results depend on the processing

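The naming rule picked 165 genes with a call. None of these changed sign in any of 22 settings, and 112 kept the call in all of them. Genes named after their values were seen, such as Myc, Srf, Gclm and Btg2, were not followed gene by gene through these settings. The count of calls depended on which arrays gave the estimate of spread. With the 1 h and 4 h arrays alone, 1289 probe sets were higher and 1053 lower, and 711 genes were higher and 706 lower, and the cause was not tested. The same fit with a replicate block, chosen after seeing the data, gave 655 higher and 578 lower probe sets and 364 higher and 376 lower genes. In the fit of 20 arrays the replicate block gave 2131 higher and 1854 lower probe sets. Same-numbered arrays did not deviate together (correlations of -0.224 to 0.202 over 5 pairs), so the numbers were not taken to pair the cultures. The study's methods describe several stretch times within each culture, so arrays of the same culture may be paired across groups. The labels do not say which, and the main fit ignores any such pairing. Without 1 array at a time, 1696 to 2339 probe sets were higher and 1440 to 2111 lower, and past 1.5-fold 63 to 98 were higher and 104 to 148 lower. In the added fit with the block, 33 ribosome biogenesis genes (49 before), 5 tRNA synthetases (16) and 8 ATF4 targets (13) were higher, and 4 ERK feedback genes (11) and 25 immediate early genes (28) were lower. No BCL2 family gene (4), endoplasmic reticulum chaperone (5) or cytosolic heat shock gene (6) was higher there, and 1 gene of fatty acid oxidation (5) was lower. Of 51 genes picked by the naming rule with a call and several probe sets, 17 had no other probe set called. In 0 of them was another one called in the opposite direction. The mean of a gene's probe sets gave smaller differences of -0.31 for Fos, -0.21 for Fas, -0.23 for Plaur, -0.31 for Ppargc1a, 0.31 for Pik3ip1, -0.26 for Tap1, 0.14 for Tead4 and -0.05 for Flt1, and turned Atp2a2, which had no call, from -0.04 to 0.10.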
